A study of Mus musculus with 6 samples.

Results

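Imprinted genes, which are transcribed wholly or mainly from the copy inherited from 1 parent, were followed in mouse primary visual cortex (V1) after monocular deprivation. The set held 38 genes of known imprinted clusters, and all 38 had a row among the 52636 genes of the count table. They were selected on the measured difference between hemispheres of one of them, Zdbf2, which was lower in contralateral V1, so the hemisphere values below are a description and nothing is read from the direction of Zdbf2. A count of back-splice reads, which mark circular RNAs, was added where the circRNA's host was a member, and 1 of 1488 circRNAs met that condition.

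The mice were wild-type C57BL/6J at postnatal day 28. In each of 3 mice the right eye was kept shut by suture for 3 days, and V1 was then dissected from both hemispheres. Left V1 is contralateral to the closed eye and receives most of its input from it, and right V1 is ipsilateral. This gave 3 contralateral and 3 ipsilateral total RNA libraries, numbered 1 to 3 by mouse. No mouse without eye closure was analysed here, so a difference between hemispheres cannot be told apart from a left-right difference that does not depend on deprivation. The strain is inbred, so the parental copies carry the same sequence and these counts give the summed level of both; imprinting itself was not measured.

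Imprinting is set by DNA methylation laid down at control regions in the egg or sperm and kept through development. Imprinted genes lie in clusters, in which a long noncoding RNA from 1 parental copy often goes with silence of the neighbouring protein genes on that copy. Many are known from growth of the fetus and placenta, and in the brain several act in feeding, social behaviour and synaptic function.

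Libraries held 17849253 to 32213500 gene reads, and their log2 levels correlated at 0.984 to 0.994. Levels are given as CPM, a gene's reads relative to all gene reads of the library after TMM scaling. The summed CPM of 6 excitatory cortical neuron markers lay between 4441 and 6150, and 8 choroid plexus markers summed to 1.07 to 2.40. The mitochondrial ribosomal RNA gene mt-Rnr1 split the libraries: it stood at 15.02 to 34.6 CPM in contralateral 1, ipsilateral 1 and ipsilateral 3, and at 2346 to 5759 CPM in the other 3. Contralateral 2 held the highest of the 6 levels for 27.0% of the 20473 genes tested and the lowest for 22.6%, and hemisphere ratios of members highest or lowest in it are given with and without it.

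The members lie on 10 chromosomes, with 15 on chromosome 7. Coordinates are of GRCm38 with the GENCODE M21 annotation. Zdbf2, the gene for a zinc finger protein, is transcribed from the plus strand of chr1:63273265-63314576. The 250 bases before its RefSeq start (GRCm38.p6, chr1:63273019-63273268, plus strand) are shown because Zdbf2 is the member on which the choice of the set turned. They hold 26 CpG dinucleotides, more than 90.4% of all RefSeq promoter windows (median 6). Capitals mark each TGACG on either strand.
Zdbf2 promoter window: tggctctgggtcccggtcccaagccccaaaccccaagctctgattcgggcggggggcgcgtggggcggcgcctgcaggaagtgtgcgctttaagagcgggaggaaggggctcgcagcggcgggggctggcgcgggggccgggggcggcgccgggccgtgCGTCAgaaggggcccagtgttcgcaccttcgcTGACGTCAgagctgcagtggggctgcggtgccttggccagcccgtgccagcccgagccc
One match of TGACGTCA, the element bound by the activity-regulated factor CREB, begins at position -59 and takes in 2 of the 3 matches of TGACG. TGACGTCA was found in 1.55% of 32851 RefSeq windows searched on both strands, and among the 46 windows of the 30 members with an entry it was found in 3, those of Zdbf2, Meg3 and Peg3. TGACG was found in 17.8% of all windows and in 11 member windows. TGANTCA, bound by AP-1, was found in 6.75% of all windows and 2 member windows, GCGNGGGCG, bound by Egr factors, in 4.70% and 1, and TGCCGC, bound by the imprint keeper ZFP57, in 8.68% and 8. None of these 3 motifs was found in the window printed, which says only that these letters are not in it. The window of a second, upstream RefSeq start of Zdbf2, not printed, held 3 matches of TGCCGC and none of the other motifs.

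The second sequence set bears on Rtl1, a retrotransposon-derived protein gene on the minus strand of chr12:109589193-109600330. The other strand carries 6 microRNA hairpins with 11 mature microRNAs, made from the maternal copy, that pair with the Rtl1 transcript. One mature arm of each hairpin is shown with its seed, bases 2 to 8, in capitals.
mmu-miR-431-5p: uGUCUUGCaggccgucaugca
mmu-miR-433-3p: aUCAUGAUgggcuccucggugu
mmu-miR-127-3p: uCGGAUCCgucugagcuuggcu
mmu-miR-434-3p: uUUGAACCaucacucgacuccu
mmu-miR-432: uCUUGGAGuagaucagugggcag
mmu-miR-136-5p: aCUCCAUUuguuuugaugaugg
The 11 mature microRNAs had 11 distinct seeds. Total RNA libraries of this kind do not measure mature microRNAs, and the 6 hairpin genes were listed at 0 reads in all 6 libraries. Genes whose every base lay in exons of the opposite strand had no read in any library (0 of 332), against 41.6% of 5553 short unshared genes. Reads over such shared bases were therefore left uncounted on both strands, and a gene and its antisense partner cannot be told apart by strand here. Of the members, 30 shared under 10% of their exonic bases with another gene and 8 shared more. The shared part was 27.3% for Ube3a and 21.97% for Gnas, both with genes of the opposite strand, and 100% for Snurf, with genes of its own strand. Snrpn shared 34.1%, of which 27.3% was with genes of its own strand and 6.86% with the opposite one.

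Per kilobase of exon, the members spanned from Meg3 to genes barely detected. The median over all 38 members, with the 4 too scarce to be tested counted, was 6.34 CPM per kb. Over tested genes only, the median of all genes was 3.24. Meg3, a long noncoding RNA made from the maternal copy, stood at 146 CPM per kb, which ranked it 115 of 20473 when the whole exonic length was used. Snrpn, a splicing protein gene of the Prader-Willi region, followed at 129 CPM per kb, Nap1l5, a gene for a nucleosome assembly protein relative, at 98.6, and Impact, a regulator of translation, at 64.6. Over the bases shared with no other gene, the order of the first pair turned: Snrpn stood at 196 and Meg3 at 159 CPM per unshared kb. Over whole lengths, Peg13, Rian, Peg3 and Copg2 followed at 44.4, 44.0, 36.1 and 24.9 CPM per kb. Nnat, Mest, Ube3a and Blcap lay close together at 14.8 to 16.8 CPM per kb, and their ranges over libraries overlapped. Per unshared kb they ran from 14.8 for Blcap to 22.2 for Ube3a.

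**Figure D1:**
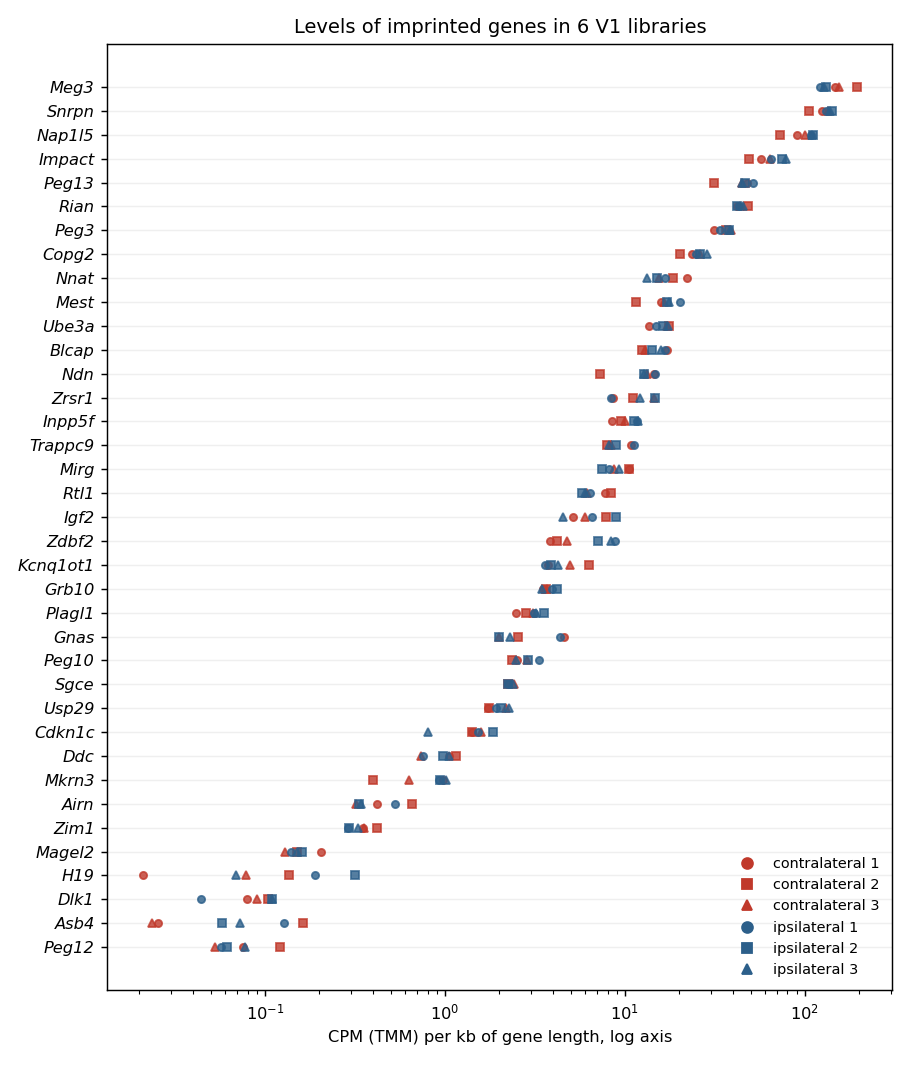
Level of each imprinted gene in each library as CPM per kb of gene length, on a log axis (red contralateral, blue ipsilateral; circle, square and triangle for mouse 1, 2 and 3). Meg3 is highest over whole lengths, at a mean of 146 CPM per kb (Snrpn is highest over unshared bases), and the 3 genes at the bottom lie near 0.1; Snurf, listed at 0, cannot be drawn.

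The members Asb4, H19, Peg12 and Snurf, had too few reads to be tested, which left 34 of 38. H19, a noncoding RNA abundant in the fetus, had 1, 6 and 4 reads in contralateral 1 to 3 and 9, 23 and 4 in ipsilateral 1 to 3. Asb4 had 2 to 12 reads and Peg12 3 to 6 reads per library. Snurf is encoded within Snrpn and shares all 216 of its exonic bases with Snrpn and another gene, so its 0 reads set no limit on its level.

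Zdbf2 stood at 48.6, 53.2 and 60.3 CPM in contralateral 1 to 3 and at 112, 89.2 and 105 CPM in ipsilateral 1 to 3. The highest contralateral value lay below the lowest ipsilateral one, and the mean was 54.0 ± 5.90 against 102 ± 11.5 (SD, n = 3). The fitted log2 contralateral over ipsilateral ratio was -0.92 (SE 0.13), and it was -1.20, -0.75 and -0.80 within mouse 1, 2 and 3. Zdbf2 was among the 26 genes, 0.127% of those tested and all lower in contralateral V1, with an adjusted p under 0.05 in edgeR's quasi-likelihood test (0.0180, with Benjamini-Hochberg adjustment). With the mouse as a block the adjusted p was 7.27e-05, and Zdbf2 was 1 of 183 genes called (0.894%) and of 143 called lower (0.698%). No other member passed either test.

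Zdbf2 kept its direction but did not pass without some libraries. Without contralateral 2 the log2 ratio was -0.91 and the adjusted p 0.242, and without ipsilateral 3 they were -0.90 and 0.05005. Within the libraries of low mt-Rnr1 the log2 ratio was -1.17, with contralateral 1 as the only contralateral library. Within those of high mt-Rnr1 it was -0.66, with ipsilateral 2 as the only ipsilateral library.

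In bulk tissue, fewer cells of a type and less RNA per cell cannot be told apart. Summed markers of GABAergic interneurons (Gad1, Gad2, Slc32a1, Pvalb, Sst, Vip; 6 of 6 detected) moved with the hemisphere as Zdbf2 did: 279 to 337 CPM in contralateral and 413 to 490 CPM in ipsilateral V1. Singly, Gad1, Gad2, Pvalb and Vip were lower in every contralateral library than in any ipsilateral one. Slc32a1 (16.4 to 24.6 against 19.9 to 38.3 CPM) and Sst (18.9 to 23.1 against 16.7 to 42.8 CPM) overlapped between hemispheres. The part of these interneuron markers in the Zdbf2 values was not tested. Summed markers of excitatory neurons overlapped between hemispheres, at 5460 to 6037 CPM in contralateral and 4441 to 6150 CPM in ipsilateral V1.

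**Figure D2:**
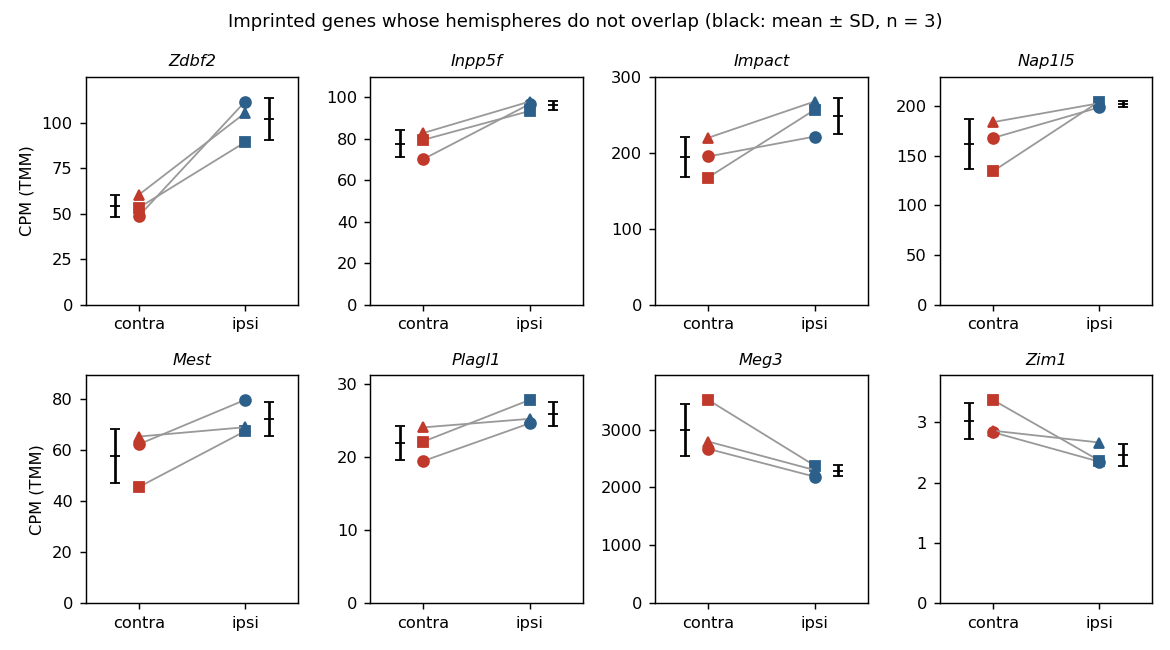
CPM of the 8 imprinted genes whose hemispheres do not overlap, by hemisphere; lines join the 2 hemispheres of a mouse (circle, square and triangle for mouse 1, 2 and 3) and black bars are mean and SD of 3. Zdbf2 goes from a mean of 54.0 to 102 CPM, and in the other 7 genes the means differ by a smaller factor.

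Zdbf2 aside, since its difference chose the set, 5 of the other 33 tested members had every contralateral value below every ipsilateral one. The same held for 6.29% of all genes tested. All 5 are listed as paternally expressed, as are 22 of the 34 tested members with Zdbf2 counted. The parental copy and the isoform that the reads came from were not measured. Inpp5f, a phosphoinositide phosphatase gene, stood at 70.2, 79.5 and 82.8 CPM in contralateral and 96.8, 93.4 and 98.0 CPM in ipsilateral V1, a log2 ratio of -0.31 (SE 0.12). Impact stood at 196, 168 and 220 CPM in contralateral against 222, 257 and 268 CPM in ipsilateral V1, a log2 ratio of -0.36 (SE 0.14) that was -0.26 without contralateral 2. Nap1l5 stood at 168, 134 and 184 CPM against 199, 205 and 203 CPM. Its lowest value was in contralateral 2, as it was for Impact, and its log2 ratio was -0.32 with that library and -0.20 without it. Mest, which encodes a hydrolase-like protein, stood at 62.3, 45.5 and 65.4 CPM against 79.8, 67.5 and 69.0 CPM, with log2 ratios of -0.32 and, without contralateral 2, -0.18. Plagl1, which encodes a zinc finger transcription factor, stood at 19.4 to 24.0 CPM against 24.6 to 27.8 CPM. Meg3 and Zim1 lay higher in every contralateral library, 2 members beside 6.70% of all genes.

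A lower contralateral value in 3 of 3 mice was seen for 8 of the 33 members other than Zdbf2, beside 17.3% of all genes, with Snrpn, Usp29 and Copg2 added to the 5 above. A higher one was seen for 5 members beside 19.1% of all genes: Meg3, Zim1, Rtl1, Kcnq1ot1 and Nnat.

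Across the 34 tested members, with Zdbf2 counted, the fitted log2 ratio was negative in 20 and positive in 14. Their median was -0.06, beside 0.03 over all tested genes. The 22 paternally expressed members, Zdbf2 among them, had a median of -0.16, and of -0.09 without contralateral 2. The 6 maternally expressed members had a median of 0.16, and of 0.15 without it. Of these, Meg3, Rian and Mirg are neighbours in the same cluster. The difference between the paternal and maternal medians was not tested. The 6 noncoding members had a median of 0.23 that became 0.06 without contralateral 2, the library in which 4 of them were highest. Of the 28 protein-coding members, 4 were highest and 10 lowest in that library.

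Leaving out contralateral 2 moved most of the members that were extreme in it toward 0. A shift away from the extreme follows from how these members were picked and is no trait of imprinted genes. In contralateral 2, 8 of the 34 tested members were highest and 11 lowest, beside 27.0% and 22.6% of all genes. Among those lowest in it, the log2 ratio went from -0.51 to -0.26 for Mkrn3, from -0.21 to -0.04 for Peg13, from -0.19 to -0.10 for Copg2 and from -0.18 to -0.09 for Snrpn. It also went from -0.17 to -0.11 for Peg10 and from -0.13 to -0.05 for Blcap. For Ndn and Trappc9 it changed sign, from -0.20 to 0.04 and from -0.07 to 0.02. Among those highest in it, the log2 ratio went from 0.35 to 0.15 for Kcnq1ot1, from 0.30 to 0.21 for Zim1 and from 0.29 to 0.20 for Rtl1. It changed sign for Rian, from 0.04 to -0.02, for Ddc, from 0.08 to -0.06, and for Airn, from 0.22 to -0.11. For Ube3a it moved away from 0, from -0.00 to -0.07.

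**Figure D3:**
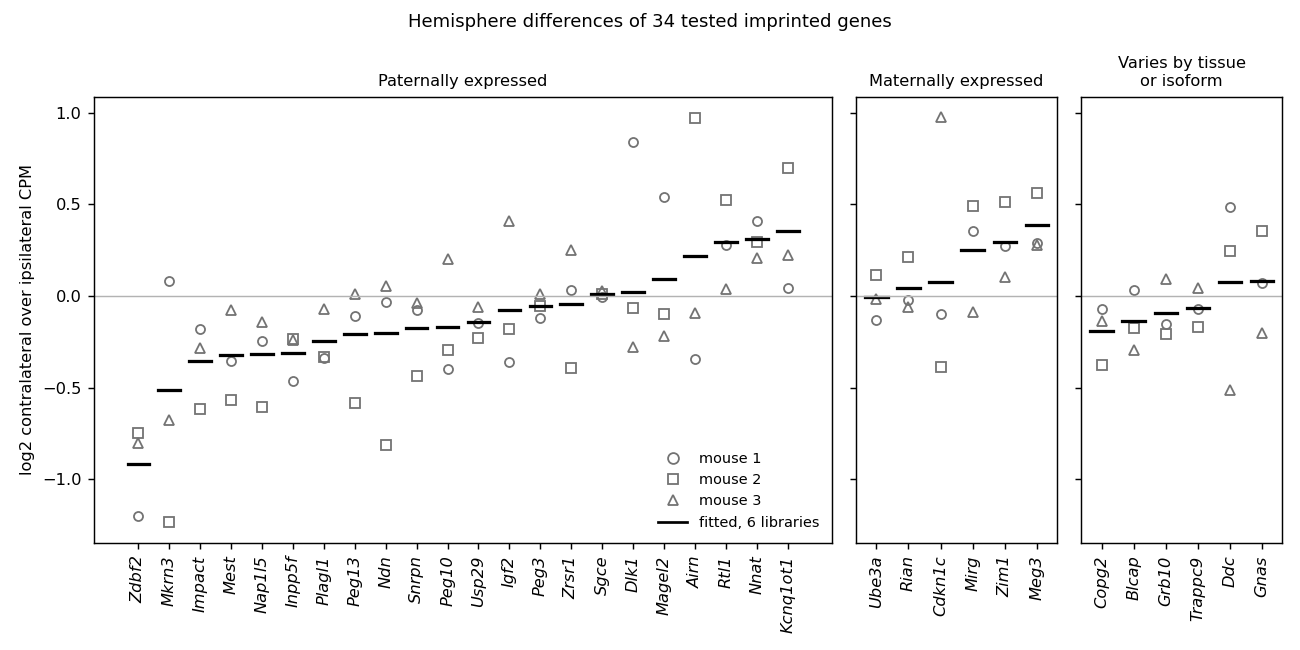
Log2 ratio of contralateral to ipsilateral CPM for each of the 34 tested imprinted genes, within each mouse (open symbols) and fitted over 6 libraries (bars), in panels by the parental copy each is known to be expressed from. Zdbf2 is lowest at a fitted -0.92 with all 3 mice below -0.7, and mouse 2 lies farthest from 0 for many of the others.

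The Dlk1-Dio3 cluster of chromosome 12 holds noncoding RNAs of the maternal copy and protein genes of the paternal one. Meg3 stood at 2667, 3514 and 2793 CPM in contralateral 1 to 3 and at 2185, 2378 and 2299 CPM in ipsilateral 1 to 3, a log2 ratio of 0.39 (SE 0.16) that was 0.25 without contralateral 2. The hemispheres did not overlap, contralateral 2 held the highest value, and the adjusted p with the mouse as a block was 0.262. Rian, the host of many small nucleolar RNAs, stood at 769, 883 and 790 CPM in contralateral and 781, 763 and 825 CPM in ipsilateral V1, with a log2 ratio of 0.04. Mirg, a microRNA host, stood at 76.6, 76.4 and 63.8 CPM against 59.8, 54.4 and 67.7 CPM, and its hemispheres overlapped. The 3 RNAs did not keep 1 ratio to each other: per kb, Meg3 over Rian was 3.49, 4.01 and 3.56 in contralateral and 2.82, 3.14 and 2.81 in ipsilateral V1. Meg3 over Mirg overlapped between hemispheres, at 14.0, 18.6 and 17.7 against 14.7, 17.6 and 13.7. How often ratios of other gene pairs part by hemisphere was not counted, so nothing is read from these ratios. Rtl1 stood at 49.6, 53.1 and 39.3 CPM against 40.8, 36.8 and 38.3 CPM. Reads were counted without regard to strand, so reads of the other strand outside the microRNA hairpins would fall in this row too. It cannot be read as the paternal Rtl1 transcript alone. Dlk1, a Notch-related membrane protein gene, stayed at 0.25 to 0.62 CPM in all 6 libraries, and the level of Meg3 per kb was 1169 to 2737 times its own.

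On chromosome 7, the region lost in Prader-Willi and Angelman syndromes held one abundant paternal gene and several scarce ones. Snrpn stood at 268, 227 and 289 CPM in contralateral and 282, 307 and 297 CPM in ipsilateral V1, with its lowest value in contralateral 2. Ndn, a MAGE family gene of neurons, stood at 53.3, 26.9 and 49.0 CPM against 54.5, 47.2 and 47.2 CPM, also lowest in contralateral 2. Mkrn3, a ubiquitin ligase gene known from the timing of puberty, stood at 2.49, 1.02 and 1.62 CPM against 2.35, 2.40 and 2.58 CPM. Magel2, another MAGE gene, stayed at 0.60 to 0.95 CPM. Ube3a, the ubiquitin ligase gene of Angelman syndrome that neurons express from the maternal copy, stood at 281, 362 and 355 CPM in contralateral and 308, 335 and 359 CPM in ipsilateral V1. Its log2 ratio was -0.00 (SE 0.14), and both libraries of mouse 1 lay below the other 4.

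Peg3 and Usp29 are transcribed in opposite directions from neighbouring starts on chromosome 7. Peg3, a zinc finger gene known from maternal behaviour, stood at 416, 483 and 518 CPM in contralateral and 453, 503 and 514 CPM in ipsilateral V1. Usp29 stood at 31.5 to 39.5 CPM in contralateral and 34.9 to 41.2 CPM in ipsilateral V1. Per kb, Peg3 over Usp29 kept to 16.9 to 20.7 in the 6 libraries. The maternally expressed Zim1 next to them lay at 2.84, 3.37 and 2.86 CPM in contralateral and 2.35, 2.37 and 2.67 CPM in ipsilateral V1, with Peg3 86.9 to 129 times higher per kb.

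Further imprinted pairs overlap on the genome. Copg2, a coat protein gene of Golgi transport, overlaps the end of Mest on the other strand, and stood at 121, 103 and 133 CPM in contralateral and 127, 134 and 147 CPM in ipsilateral V1. The noncoding Peg13 lies in an intron of Trappc9, a gene for a vesicle tethering subunit, on the same strand. Peg13 stood at 225, 147 and 213 CPM against 243, 220 and 211 CPM, and per kb it was 3.92 to 5.48 times Trappc9. Nnat, a small membrane protein gene, lies in an intron of Blcap on the other strand; it stood at 40.3, 33.8 and 28.1 CPM against 30.4, 27.5 and 24.4 CPM. Blcap stood at 52.1, 37.9 and 39.2 CPM against 51.0, 42.8 and 48.1 CPM, and per kb Blcap over Nnat was 0.672 to 0.838 in contralateral and 0.933 to 1.19 in ipsilateral V1. That ratio too is a description, with no count over other gene pairs beside it. Kcnq1ot1, the noncoding RNA antisense to the channel gene Kcnq1, stood at 314, 535 and 420 CPM in contralateral and 305, 329 and 359 CPM in ipsilateral V1, highest in contralateral 2. Because it is counted over 84395 bases, its level per kb was only 4.47 CPM. In total RNA counted without regard to strand, reads of unspliced Trappc9, Blcap or Kcnq1 would fall in the rows of Peg13, Nnat or Kcnq1ot1. Those rows, and the ratios taken from them, cannot be read as those RNAs alone.

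The remaining members had log2 ratios between -0.17 and 0.22. Sgce, the sarcoglycan gene of myoclonus dystonia, varied least, from 23.6 to 25.8 CPM over the 6 libraries. Its neighbour Peg10, another retrotransposon-derived gene, stood at 15.7 to 22.1 CPM. Grb10, an adaptor of insulin and growth factor receptors, stood at 31.6 to 38.1 CPM, and its neighbour Ddc, which makes dopamine and serotonin, at 3.28 to 5.14 CPM. Cdkn1c, a brake on the cell cycle, stood at 1.64 to 3.79 CPM and Airn, the noncoding RNA antisense to Igf2r, at 1.15 to 2.36 CPM.

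Differences between the 3 mice did not enter the choice of the set and were tested with the hemisphere as a term. The contralateral and ipsilateral libraries of a mouse served as its replicates. Of 20473 genes, 1313 (6.41%) passed an adjusted p of 0.05, and 4 of the 34 members did: Gnas, Zrsr1, Igf2 and Trappc9. Gnas, which encodes the stimulatory G protein alpha subunit, stood at 51.0 and 48.5 CPM in mouse 1 (contralateral, then ipsilateral), 28.4 and 22.2 in mouse 2 and 22.3 and 25.6 in mouse 3. This count takes all exons of the gene together, without the 21.97% of bases that are shared. Which Gnas transcripts the reads came from was not resolved. Mouse 1 lay above both others in both hemispheres, with log2 ratios of -0.98 for mouse 2 and -1.05 for mouse 3 over mouse 1 (edgeR adjusted p = 2.99e-04). Zrsr1, a splicing factor gene, went the other way, at 28.1 and 27.4 CPM in mouse 1, 36.6 and 48.0 in mouse 2 and 47.4 and 39.8 in mouse 3 (edgeR adjusted p = 0.0145). Igf2, the fetal growth factor, was highest in mouse 2, at 45.2 and 51.2 CPM against 29.4 and 37.8 in mouse 1 and 34.5 and 26.0 in mouse 3 (edgeR adjusted p = 0.0195). Trappc9 stood at 68.3 and 71.9 CPM in mouse 1, 50.4 and 56.7 in mouse 2 and 53.4 and 51.9 in mouse 3 (edgeR adjusted p = 0.0469). Both libraries of mouse 1 lay above the other 4 for 5 members (17.7% of all genes), Ndn, Peg13, Trappc9, Blcap and Gnas, and below them for 5 (12.6%), Dlk1, Ube3a, Peg3, Kcnq1ot1 and Zrsr1.

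**Figure D4:**
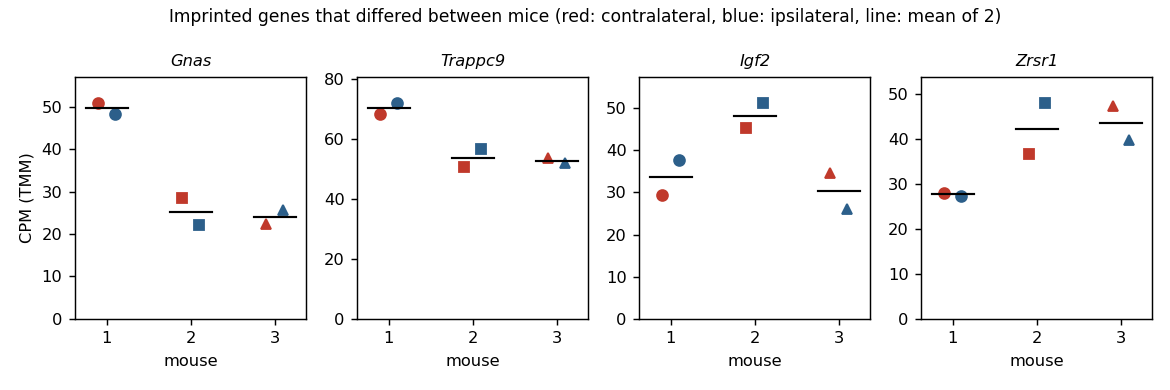
CPM of the 4 imprinted genes that passed the test between mice, by mouse, for contralateral (red) and ipsilateral (blue) V1, with the mean of both as a line. Gnas lies near 50 CPM in mouse 1 and between 22.2 and 28.4 CPM in the others, and Igf2 is highest in mouse 2.

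Genes differed between mice along their GC content. Over 20428 genes, the log2 ratio of mouse 3 to mouse 1 had a Spearman correlation of -0.618 with the GC share of the longest transcript, that of mouse 2 to mouse 1 -0.447, and that of the hemispheres 0.0141. The transcripts of Gnas, Igf2 and Trappc9 were 57.8%, 55.8% and 55.0% GC, above the median of 48.5%, and that of Zrsr1 was 46.2%. After a GC correction, chosen after the data were seen, 101 genes (0.493%) passed between mice, and of the members only Gnas did, with log2 ratios of -0.73 and -0.62 (edgeR adjusted p = 0.0382). The adjusted p became 0.0619 for Igf2, 0.185 for Zrsr1 and 0.667 for Trappc9.

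**Figure D5:**
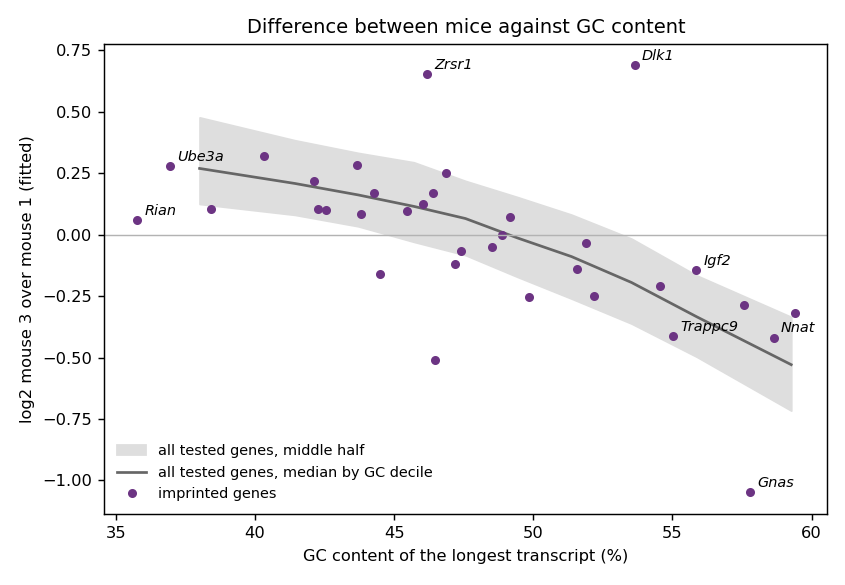
Fitted log2 ratio of mouse 3 to mouse 1 against the GC content of the longest transcript, for imprinted genes (points) and all tested genes (line, median by GC decile; band, middle 50%). The median goes from 0.27 in the lowest decile to -0.53 in the highest, and Gnas lies below the band at -1.05.

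Which library was left out also bore on 3 of the 4 members. Gnas passed in all 11 alternatives. Zrsr1 did not pass without contralateral 1 (adjusted p = 0.171) or ipsilateral 1 (0.108), and Igf2 did not without ipsilateral 2 (0.0821). Trappc9 passed in 3 of 11 alternatives: it did not with RLE size factors (0.0564) or DESeq2 (0.0799), nor without contralateral 1, contralateral 3, ipsilateral 1 or ipsilateral 3 (adjusted p = 0.588, 0.0550, 0.4502 and 0.212). With the mt-Rnr1 split taken into the model, Zrsr1, Igf2 and Trappc9 were at 0.196, 0.0813 and 0.267. Summed meningeal and fibroblast markers (11 of 11 detected), a tissue in which Igf2 is abundant, averaged 62.3, 71.1 and 55.1 CPM in mouse 1, 2 and 3. Mouse 2 was also highest in summed markers of astrocytes, oligodendrocytes and their precursors, microglia, and endothelial and mural cells. It was not in those of excitatory neurons or interneurons. The part of any of these cells, meningeal ones among them, in the Igf2 values was not tested.

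Other imprinted genes, a list of 41 that are no members, gave 31 tested genes with a median log2 hemisphere ratio of 0.04. None passed without the block. With the mouse as a block 1 did, the serotonin receptor gene Htr2a, which stood at 10.5, 11.1 and 15.8 CPM in contralateral and 19.3, 21.5 and 21.6 CPM in ipsilateral V1 (log2 ratio -0.74, edgeR adjusted p = 0.298 without and 0.00701 with the block). Between mice, Begain, Tssc4, Cd81 and Gab1 passed, and none of them did after the GC correction. Of 24 genes that set or keep imprints, such as DNA methyltransferases and the ZFP57 partner Trim28, 22 were tested. None passed between hemispheres, and the median log2 ratio was 0.00. Between mice, Ehmt2, Trim28, Arid4b and Arid4a passed before the GC correction and none did after it.

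The only member named as a circRNA host was Copg2, on chr6:30858738-30863610, minus strand, from exon to exon. It had 2, 1 and 2 back-splice reads in contralateral 1 to 3 and 1, 2 and 2 in ipsilateral 1 to 3. These 10 reads stood beside 17511 gene reads of Copg2, or 0.571 per 1000 (exact 95% binomial interval 0.274 to 1.05, for counting error only). With 1 or 2 reads per library, no difference was detectable at this depth (log2 hemisphere ratio 0.19, SE 0.68). Of all tested genes, 4.78% were a circRNA host beside 1 of 34 members, and among genes at 10 CPM or more, 8.85% of 9933 were a circRNA host and 1 of 27 members was.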

How the data were processed

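Members and gene lists were chosen with earlier results of these data known. Per the file headers, the authors deposited raw read counts, for genes and, as back-splice reads, for circRNAs. The authors also deposited a normalized circRNA signal per library, which equals the quantile-normalized counts in 8928 of 8928 values (within 1e-04) and served only as an alternative. GRCm38, HISAT2, featureCounts, limma and DESeq2 stand in the submitters' processing notes without roles. The circRNA caller is not given in the sources used here. RNA came from micro-dissected V1 and libraries from a stranded total RNA kit, per the labels' protocols. Columns of other samples numbered 0.

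Gene symbols and coordinates came from GENCODE M21 (52489 of 52636 IDs found), and sequences from RefSeq tables of GRCm38.p6. Counts were tested with edgeR 4.0.16 (R 4.3.3; TMM, quasi-likelihood, minimum count 10, minimum total 15, Benjamini-Hochberg over all genes tested, threshold 0.05), without a block. CircRNAs needed 2 reads in 3 libraries. Alternatives were the mouse as a block, DESeq2 1.42.0, limma 3.58.1 for the deposited signal, other scaling, no filter, an mt-Rnr1 term (divided at 1000 CPM) and leaving out libraries. Libraries held 13428 to 26867 back-splice reads, a median of 6 per circRNA.

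The labels tie the libraries of a number to 1 mouse, and their deviations from the group means correlated at 0.555, 0.117 and 0.256. Pairs from different mice correlated at -0.420 to 0.227, so for mouse 2 the pairing rests on the labels. Members were all named. Values per library were given for those that passed a test, the 12 highest per kb and members of the chromosome 12, chromosome 7 and overlapping units. The GC correction, the check of shared exons, the motifs, the sequences printed and the ratios within clusters were chosen after the data were seen. Figures were drawn with matplotlib 3.10.9. The count tests were also run on simulated data.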

Additional observations from a re-analysis of the deposited data

How the results depend on the processing

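With the mouse as a replicate block, 183 genes passed between hemispheres in place of 26, and 180 with the block and the GC correction. DESeq2 called 82 genes and no filter on low counts 109. Leaving out a library or both libraries of a mouse gave 0 to 39 genes (0 to 35 for single libraries): 0 without contralateral 2 (833 at an unadjusted p under 0.05) and 0 without mouse 2 (521). Zdbf2 kept its direction in all 17 alternatives (log2 ratio -1.17 to -0.66). It passed in 12 of the 17, a count that takes in the low and high mt-Rnr1 sets, each with 1 library in a hemisphere. It did not pass without contralateral 2, ipsilateral 3, mouse 2 (edgeR adjusted p = 0.617) or mouse 3 (0.119), nor within the high mt-Rnr1 set. The block changed no other member's call. Of the 34 members, 17 kept 1 sign in all 17 alternatives. Between mice, 1313 genes became 101 after the GC correction, 772 with the mt-Rnr1 term and 1934 with no filter, and 220 to 4425 when a library was left out (220 without contralateral 1, 510 without ipsilateral 1, 2383 without contralateral 2, 4425 without ipsilateral 2); 9 further members, Ndn among them (adjusted p 0.0952, passing in 6 of 11), passed in at least 1 alternative. How many of all genes newly passed between mice in at least 1 alternative was not counted, so nothing is read from these 9. No circRNA passed between hemispheres (52 at an unadjusted p under 0.05 by edgeR, 17 by DESeq2), and leaving out libraries gave 0 to 2. Between mice 14 circRNAs passed, 1 by DESeq2, and 0 to 10 with a library left out. The median level of 6.34 CPM per kb was 6.32 without TMM and 6.64 over bases shared with no other gene, a setting added after the data were seen. With 3 mice, small differences of scarce members such as Dlk1, Magel2 and Airn were not detectable. Without the block, hemisphere p-values measure the spread among the libraries of a hemisphere, from these mice only. In fits with a mouse term, the tests between mice among them, p-values measure the spread left after hemisphere and mouse are fitted.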
